A study of Gallus gallus with 5 samples.

Results

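The sterol synthesis enzymes described here are those that carry isoprenoid units through squalene and lanosterol towards cholesterol. Their RNA was measured in chicken wing follicles that were regrowing a flight feather. They were chosen by gene name, from a list of 8 enzymes, and 7 of them (FDPS, FDFT1, SQLE, LSS, CYP51A1, EBP and DHCR7) were found among the 17108 genes of the deposited table. IDI1, the isopentenyl diphosphate isomerase that precedes FDPS, had no row under that name and was not analysed here. All 7 passed the filter on low values, which required the 5 libraries to average 1 FPKM or more, as did 11031 genes in all, and 0 of the 7 were listed at 0 in any library.

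Follicles were plucked so that they regrew, and lentiviral vectors carried the overexpression (pLVX-Zsgreen) or knockdown (pLL3.7) construct into them. Each of the 5 libraries was made from total RNA of 5 pooled follicles. Wild type had 2 libraries, and the 3 treated groups had 1 each, labelled Wnt5a overexpression, knockdown of lnc7831 and knockdown of lnc3500. Treated values are given below in that order unless a library is named. The labels give no age, strain, harvest time or empty-vector library, and an unexplained tag, T4, stands in the titles of wild type but not of the treated groups. Each treated group has n = 1, and the only replicate spread is that between the 2 wild-type libraries, which may be technical because nothing says that they came from separate birds.

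Cholesterol is built from acetyl-CoA through mevalonate, farnesyl diphosphate, squalene and lanosterol. In vertebrates the genes of the route share a transcriptional control, the sterol regulatory element-binding proteins, which are held in the endoplasmic reticulum by INSIG proteins when sterol is plentiful and released when it is scarce. Skin epithelium makes much of its own cholesterol, which is a component of the lipid barrier of the cornified layer, and the last intermediates of the route also feed Hedgehog signalling and vitamin D synthesis.

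The libraries differed in ways that touch every value below. WNT5A had 29.7 and 64.3 FPKM in wild type and 75.7, 162 and 43.8 in the treated libraries, so in the library named for it WNT5A stood above the wild-type mean by less than the wild-type pair differed (centred log2 of 0.19 and 1.04). Neither targeted RNA has a row under its name, so neither knockdown was checked. FPKM as deposited were higher in the treated libraries at most genes, by a median log2 of 0.54, 0.64 and 0.56. Differences are therefore given on log2(FPKM + 1) after median centring, in which the median gene of a library is set to its 5-library geometric mean, and levels are given in FPKM as deposited. Dermal papilla is the labelled source, yet epidermal and mesenchymal markers were both abundant. The 14 epidermal markers summed to 1958 and 3318 FPKM in wild type and to 7708 to 9246 in the treated libraries, with KRT5 listed at 0 throughout, and the 9 markers of dermal papilla and fibroblasts found summed to 2299 to 7262. The tissue taken is thus uncertain. In RNA from mixed cells, a change in the number of cells of a type and a change in RNA per cell cannot be told apart.

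EBP is the sterol isomerase that moves the double bond of the sterol nucleus late in the route. Of the 7 enzymes, it was the 1 that separated the treated libraries from wild type after centring. EBP (ENSGALG00000026525) had 77.6 and 86.6 FPKM in wild type and 473, 572 and 307 in the treated libraries. All 3 treated values lay above both wild-type values, which were close together. As deposited the same held for FDPS, FDFT1, LSS and DHCR7. On that scale 87.6%, 93.1% and 90.1% of tested genes stood above the wild-type mean in the treated libraries. After centring, EBP alone of the 7 enzymes had all 3 treated values above both wild-type values. Genes outside the 7 did so too, among them SC5D, SREBF2, ACACA and PGGT1B. The share of all tested genes that did so was not counted. The name EBP is that of the deposited table, and of the 7 symbols it was the 1 without a match in the RefSeq table of chicken genes. After centring, EBP was 3.93-fold and 3.68-fold the level of wild-type library 1 and library 2 in the library labelled Wnt5a overexpression. The same ratios were 4.39 and 4.11 in lnc7831 knockdown and 2.49 and 2.33 in lnc3500 knockdown.

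**Figure D1:**
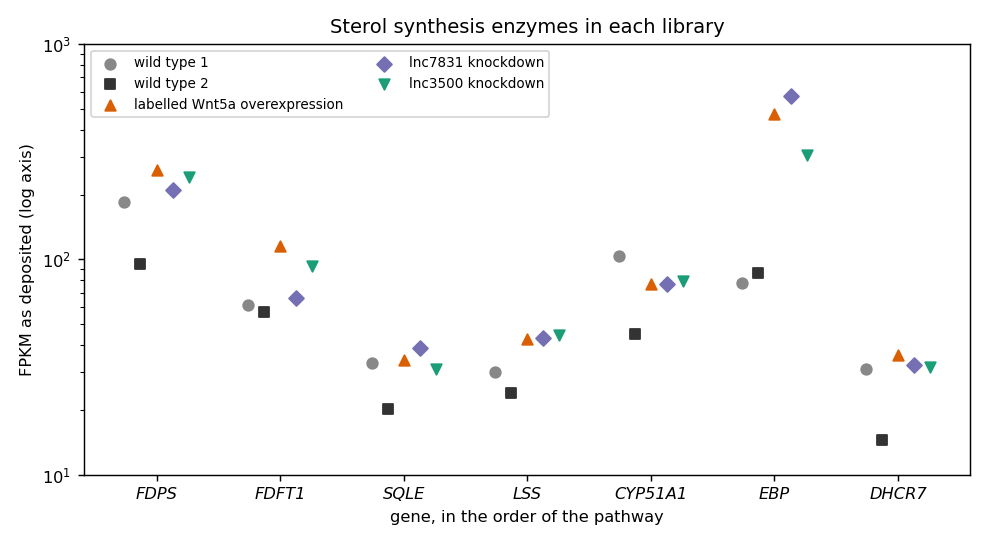
FPKM as deposited (log axis) of the 7 enzymes in each library, in the order of the pathway, with 1 symbol per library. EBP lies at 77.6 and 86.6 FPKM in wild type and between 307 and 572 in the treated libraries, and the symbols of the other enzymes lie closer together.

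The other 6 enzymes stayed near or within the range of the wild-type pair once libraries were centred. Of their 18 values in treated libraries, 16 lay between the 2 wild-type values, and the exceptions were both of FDFT1. The share of all tested genes within their wild-type pair was not counted. The pair was wide for CYP51A1, DHCR7 and FDPS, with centred log2 gaps of -1.26, -1.12 and -1.01. Only 2.05%, 2.91% and 3.59% of tested genes had a lower gap, so a place inside these pairs is a weak limit. FDPS, which joins isoprenoid units into farnesyl diphosphate, had 185 and 95.6 FPKM in wild type and 260, 211 and 240 in the treated libraries. As deposited these treated values were the higher ones, and after centring they fell between the wild-type values.

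FDFT1, squalene synthase, commits farnesyl diphosphate to sterols. It had 61.2 and 56.8 FPKM in wild type and 116, 66.2 and 92.9 in the treated libraries. Centred, it was above both wild-type libraries in the first, below both in the second and between them in the third. Between those treated libraries its log2 difference was -0.90 (SE 0.43) for lnc7831 knockdown against the library labelled Wnt5a overexpression, and it was not called there (limma adjusted p = 1).

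SQLE, squalene epoxidase, performs the first oxygen-dependent step and is a control point of the route. It had 32.9 and 20.2 FPKM in wild type and 34.2, 38.8 and 31.1 in the treated libraries. LSS, lanosterol synthase, closes the rings of the squalene epoxide, and had 30.1 and 24.1 FPKM in wild type and 42.5, 43.3 and 44.8 in the treated libraries. As deposited, each treated LSS value was above both wild-type values, and after centring each lay between them.

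CYP51A1, the cytochrome that removes a methyl group from lanosterol, had 104 and 44.8 FPKM in wild type and 77.2, 77.0 and 79.2 in the treated libraries, so the treated values nearly coincided and the wild-type values enclosed them. DHCR7, the reductase that yields cholesterol from its last precursor, had 31.1 and 14.6 FPKM in wild type and 35.9, 32.4 and 31.5 in the treated libraries. After centring, the treated DHCR7 values lay between the 2 wild-type values.

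In wild type FDPS was the highest of the 7 enzymes in FPKM, a scale per transcript length, and EBP was the highest in each treated library. SQLE, DHCR7 and LSS were the lowest 3 in every library, with LSS the highest of them except in wild-type library 1. There SQLE, DHCR7 and LSS had 32.9, 31.1 and 30.1 FPKM in wild-type library 1, closer together than the wild-type libraries differ in any of them. The 7 enzymes summed to 522 and 343 FPKM in wild type and to 1038, 1041 and 826 in the treated libraries. EBP made up 14.9% and 25.3% of that sum in wild type and 45.6%, 55.0% and 37.1% in the treated libraries.

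**Figure D2:**
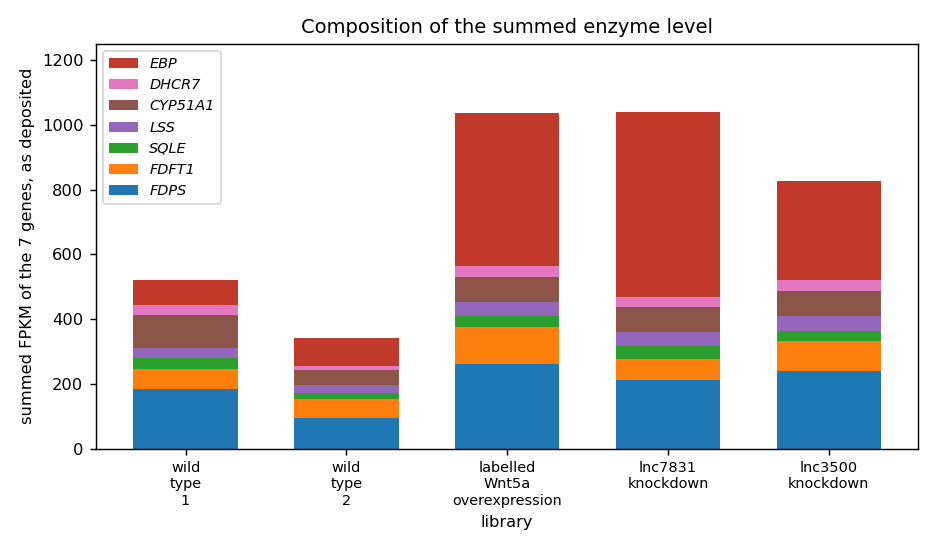
Summed FPKM as deposited of the 7 enzymes in each library, stacked by gene. EBP is 14.9% and 25.3% of the wild-type bars and between 37.1% and 55.0% of the treated bars.

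Ratios within a library do not depend on how libraries were scaled. EBP was 1.35 and 2.50 times the geometric mean of the other 6 enzymes in wild type and 6.73, 9.18 and 4.69 times in the treated libraries. Every treated ratio lay above both wild-type ratios, although these differed from each other as well. Against DHCR7, the enzyme nearest to it downstream in this list, EBP was 2.49 and 5.95 times as high in wild type and 13.2, 17.6 and 9.72 times in the treated libraries. The ratio of FDFT1 to FDPS, its neighbour upstream, showed no such separation, with 0.331 and 0.594 in wild type and 0.445, 0.314 and 0.387 in the treated libraries. The ratio of CYP51A1 to LSS was 3.46 in wild-type library 1 and between 1.77 and 1.86 in the other 4 libraries.

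In the library labelled Wnt5a overexpression against wild type, EBP alone of the 7 enzymes exceeded each wild-type library 2-fold or more, a rule of size without a test that 2.18% of all tested genes met. At 2-fold or more below both were 0 of the 7 and 1.74% of genes. EBP had a log2 difference of 1.92 (SE 0.39), higher than 99.1% of tested genes, and limma did not call it (adjusted p = 0.989). The other 6 ranged from -0.42 (SE 0.67) for CYP51A1 to 0.36 for both FDPS (SE 0.60) and FDFT1 (SE 0.37), with 4 above and 2 below the wild-type mean. The median of the 7 was 0.14, against 0.00 for all tested genes, and its sign depended on the wild-type library, being -0.14 with library 1 as the sole wild type and 0.45 with library 2. Limma called 0 of the 7 and 0.00907% of all tested genes, which is 1 gene, while at an unadjusted p under 0.05 it took 442 genes, EBP being the 1 enzyme among them.

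In lnc7831 knockdown against wild type, EBP was again the 1 enzyme past the 2-fold rule upwards, where 1.64% of genes were, and 0 were past it downwards, where 1.32% were. Its log2 difference was 2.08 (SE 0.39), higher than 99.4% of tested genes, with a limma adjusted p of 1. The other 6 enzymes all lay below the wild-type mean on the centred scale, and above it as deposited, from -0.54 for FDFT1 (SE 0.37) and CYP51A1 (SE 0.67) to -0.03 for LSS (SE 0.38). The median of the 7 was -0.11, and was -0.56 with library 1 as the sole wild type and 0.25 with library 2. Limma called 0 of the 7 and 0.0363% of all genes, and at an unadjusted p under 0.05 it took 335 genes, with EBP as the 1 enzyme.

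In lnc3500 knockdown against wild type, EBP was the 1 enzyme past the 2-fold rule upwards, as were 1.43% of genes, and 0 of the 7 were past it downwards, as were 1.64%. Its log2 difference of 1.26 (SE 0.39) was higher than 98.0% of tested genes (limma adjusted p = 1), and it is 0.82, under 2-fold, when libraries are brought to the same summed FPKM. On that summed scale the median of all tested genes was -0.39. Centred, the other 6 ranged from -0.42 for CYP51A1 (SE 0.67) to 0.21 for FDPS (SE 0.60), 3 above and 3 below. The median of the 7 was 0.02, or -0.29 with library 1 as the sole wild type and 0.28 with library 2. Limma called 0 of the 7 and 0% of all genes, and took 340 genes at an unadjusted p under 0.05, EBP among them. The 3 comparisons share their wild-type libraries, so the values of EBP in them are not independent of each other. The genes that limma called against wild type were each listed at 0 in at least 1 library. Their log2 differences were -18.0 or between 11.2 and 18.5, so the lack of a call says little about differences the size of those of EBP.

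**Figure D3:**
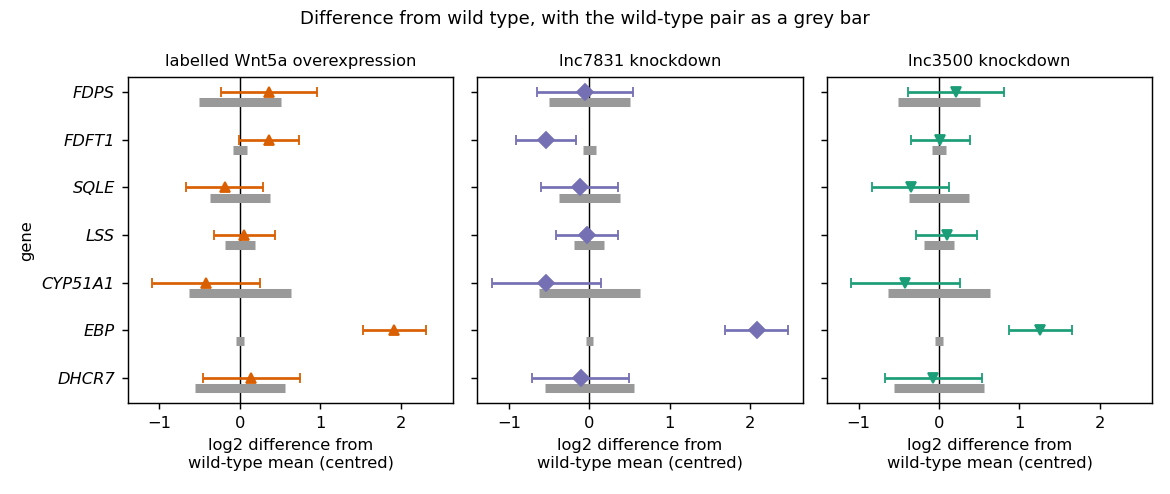
Log2 difference of each enzyme from the wild-type mean after median centring (symbols) with the limma standard error (bars), for each treated library. The grey bar spans the 2 wild-type libraries around their mean, and EBP lies outside it at 1.92, 2.08 and 1.26 while most other symbols lie over or close to it.

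The sign of the other 6 enzymes depended on the scaling. As deposited, all 6 were above the wild-type mean in each treated library, with medians of 0.68, 0.58 and 0.59, close to the shift of all genes. With libraries at the same summed FPKM, all 6 were below it in both knockdown libraries. The median of all tested genes was also below 0 there, at -0.42 and -0.39. An unnamed gene had 466058 and 633633 FPKM in these libraries, whose sums were 2.10e+06 and 1.94e+06. It had 200415 and 208769 in wild type and 0 in the library labelled Wnt5a overexpression. Another unnamed gene also had 466058 FPKM in lnc7831 knockdown, and 0 in every other library. EBP was above the wild-type mean in each comparison under all 4 scalings tried. Most epidermal markers were also above the wild-type mean after centring, with 13, 11 and 13 of 13 tested above it in the treated libraries. Of these, 8, 2 and 4 were past the 2-fold rule upwards, and the median log2 differences were 1.44, 0.91 and 1.24. The lowest median was that of lnc7831 knockdown, where EBP was highest after centring. The 2 markers below wild type there were DSP (-0.53) and PKP1 (-0.12). COL17A1 (2.36, 2.54 and 1.72) and KRT15 (1.41, 2.12 and 0.82) were highest in that library, as EBP was. The other 11 were lower there than in the library labelled Wnt5a overexpression. Leukocyte markers moved the other way, with 9, 8 and 10 of 10 below the wild-type mean and medians of -0.93, -0.55 and -1.38, and summed to 142 and 167 FPKM in wild type and 138, 188 and 103 in the treated libraries. Markers of dermal papilla and fibroblasts had medians of 0.11, 0.62 and 0.17, with 6, 7 and 5 of 9 above the wild-type mean. The part of these lists in the EBP values was not tested.

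Between treated libraries, EBP differed by a log2 of 0.16 (SE 0.45) for lnc7831 knockdown against the library labelled Wnt5a overexpression, -0.66 (SE 0.45) for lnc3500 knockdown against it, and 0.82 (SE 0.45) for lnc7831 against lnc3500 knockdown. Limma called 0 of the 7 enzymes in any of these pairs, where it called 0.0453%, 0% and 0.0272% of all genes in the same order. At an unadjusted p under 0.05 it took 0 of the 7 as well, among 215, 52 and 195 genes. The order of the 2 highest EBP values is therefore not separated from the spread, and it reverses when libraries are brought to the same summed FPKM. On that scale the median of all tested genes against wild type was -0.42 in lnc7831 knockdown and 0.14 in the library labelled Wnt5a overexpression.

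FDPS, SQLE, LSS, CYP51A1 and DHCR7 had their centred treated values within the wild-type pair. The gap of each pair was thus necessarily larger than the distance of any treated library from its mean in these enzymes. Library 2 was lower than library 1 in these and in FDFT1, by log2 differences from -1.26 for CYP51A1 to -0.17 for FDFT1, with DHCR7 at -1.12, FDPS at -1.01, SQLE at -0.75 and LSS at -0.37. EBP was at 0.10. Of the 7 enzymes 3 were at least 2-fold lower in library 2, as were 3.64% of all tested genes, and the median of the 7 was -0.75 against 0.01 for all genes. With 1 library on each side this difference has no test.

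Other cell type and state markers also differed between the wild-type libraries. FABP4, a fatty acid carrier of adipocytes, had 239 FPKM in library 1 and 9.43 in library 2, and PLIN1, which coats lipid droplets, had 16.4 and 1.97. Of 6 adipocyte markers found 5 were lower in library 2, although their summed level, 543 and 391 FPKM, was carried mostly by ADIPOQ, which was higher there (256 and 364). All 10 proliferation genes were lower, with a median of -0.47, as were all 3 tested pigment cell markers. Epidermal markers differed in both directions, with 8 of 13 tested higher in library 2 and 5 lower. KRT14 and KRT15, keratins of the basal epidermis, had 621 and 1743 FPKM and 29.4 and 285 FPKM, whereas EPCAM, an epithelial adhesion protein, had 175 and 84.3. The part of these markers in the enzyme values was not tested.

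The rest of the pathway was read from lists of the neighbouring steps. Of 14 further enzymes named, 12 were found and tested, and limma called 0 of them in each comparison with wild type, with 0 past the 2-fold rule in either direction. Over all tested genes, 1.32% to 2.18% passed that rule in a given direction and comparison, so 0 of 12 is near that share. The same shares stand beside the counts of the lists below. The 12 enzymes had a median log2 difference of 0.36, 0.03 and -0.03. Between the wild-type libraries it was -0.62, with 9 of 12 lower in library 2.

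Among the early enzymes, HMGCS1, the synthase that condenses acetyl units ahead of mevalonate, had 39.1 and 26.1 FPKM in wild type and 77.9, 46.0 and 70.3 in the treated libraries, a centred log2 difference of 0.67 (SE 0.45) in the library labelled Wnt5a overexpression. HMGCS1 was thus lower in wild-type library 2, as CYP51A1 and DHCR7 were, while PMVK, a mevalonate pathway kinase, had 138 and 144 FPKM in wild type and MVD, the decarboxylase after it, 51.5 and 72.6. ACAT2, the thiolase at the start, had log2 differences of -0.30, -0.57 and -0.53 (SE 0.49), and GGPS1, which branches off to geranylgeranyl diphosphate, 0.20, 0.35 and -0.23 (SE 0.38).

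Among the later enzymes, MSMO1, the methylsterol oxidase, had 123 and 59.1 FPKM in wild type and 174, 132 and 145 in the treated libraries. NSDHL, which acts with MSMO1 in demethylation, was lower in wild-type library 2 by a log2 of -0.92, and LBR, a sterol reductase that also anchors chromatin at the nuclear envelope, by -0.60.

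SC5D, the desaturase that acts directly on the product of EBP, had 15.4 and 16.4 FPKM in wild type and 38.0, 40.3 and 41.4 in the treated libraries. After centring, SC5D too had each treated value above both wild-type values. Its wild-type values were close, as those of EBP were, and its centred log2 differences were 0.64, 0.60 and 0.72 (SE 0.33), each under 2-fold and not called by limma (adjusted p = 1 in each). HSD17B7, a ketoreductase of the demethylation complex, had 23.2 and 29.4 FPKM in wild type and log2 differences of 0.36, 0.31 and -0.24 (SE 0.36). Of the 19 enzymes tested in all, GGPS1 included, EBP was the 1 past the 2-fold rule in each centred comparison with wild type. At the same summed FPKM it was not past that rule in lnc3500 knockdown.

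**Figure D4:**
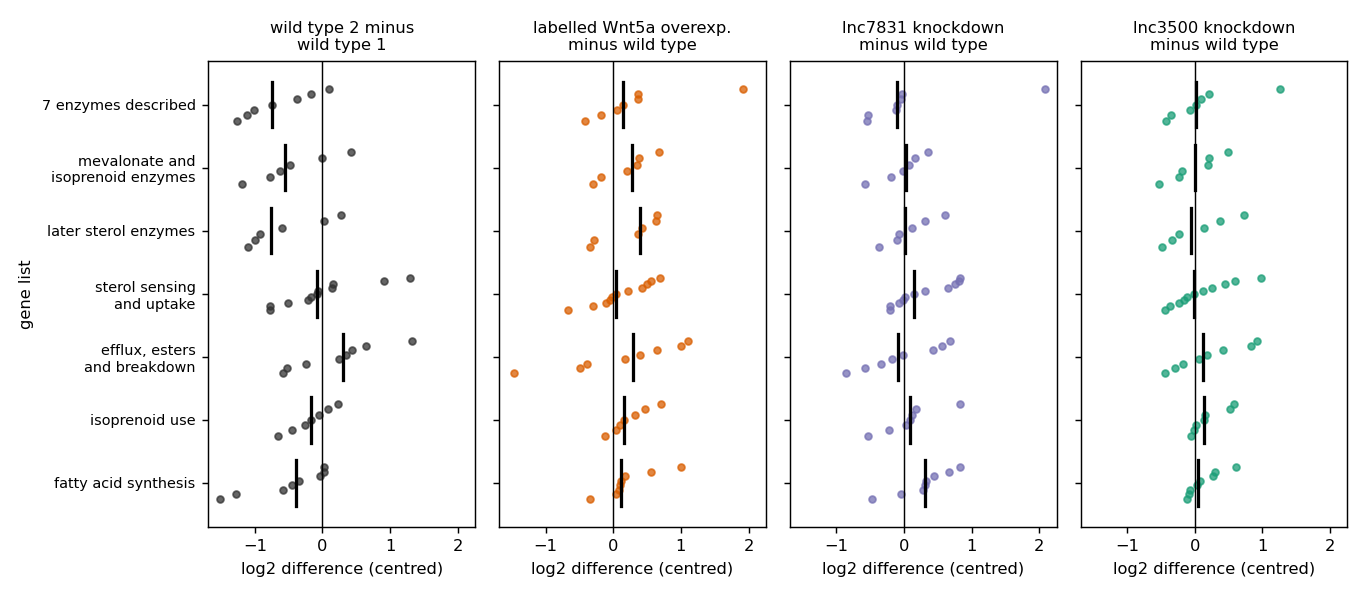
Centred log2 differences of single genes (points) with the median of each list (black line), for wild-type library 2 minus library 1 and for each treated library minus the wild-type mean. The enzyme lists sit left of 0 between the wild-type libraries, at medians of -0.75, -0.56 and -0.76, and EBP is the outermost point of the top list in the treated panels.

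Genes that sense and import sterol gave no calls either, with 0 of 11 tested past the 2-fold rule in any comparison with wild type. SREBF2, the regulator of the cholesterol genes, had 44.7 and 51.9 FPKM in wild type and 98.2, 125 and 102 in the treated libraries, and centred log2 differences of 0.42, 0.66 and 0.44 (SE 0.37). The regulator SREBF1, named SREBP-1 in the deposited table, had 10.1 and 27.0 FPKM in wild type and 41.2, 34.2 and 51.9 in the treated libraries, so it differed between the wild-type libraries by a log2 of 1.29. It was higher in the wild-type library in which CYP51A1 and DHCR7 were lower. SCAP, the escort of both regulators, also differed in that direction, at 7.75 and 16.0 FPKM, with 25.6, 31.8 and 26.9 in the treated libraries.

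INSIG1, which retains the regulators and is itself one of their targets, had 52.8 and 31.9 FPKM in wild type and 57.8, 58.0 and 49.2 in the treated libraries. INSIG2, the second retention protein, had 17.5 and 12.6 FPKM in wild type and 44.0 in lnc7831 knockdown, a log2 difference of 0.82 (SE 0.40). STARD4, a carrier of cholesterol between membranes, had 14.7 FPKM there against 6.30 and 3.50. NPC1, which exports cholesterol from lysosomes, had its largest difference, 0.49 (SE 0.35), in the library labelled Wnt5a overexpression, and NPC2, its lysosomal partner, was at -0.67 (SE 0.38) there.

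Of 8 tested genes of efflux, esterification and breakdown, 1 passed the 2-fold rule in the comparisons with wild type. It did so downwards in the library labelled Wnt5a overexpression, as did 1.74% of all tested genes. APOA1, the main protein of high-density lipoprotein, had 2433 and 1773 FPKM in wild type and 1134 in the library labelled Wnt5a overexpression, a log2 difference of -1.47 (SE 0.48), with 1883 and 2872 in the knockdown libraries. NCEH1, a cholesteryl ester hydrolase, had 5.57 and 4.82 FPKM in wild type and 16.9, 8.39 and 16.3 in the treated libraries. CYP27A1, a sterol hydroxylase, had 1.51 and 5.12 FPKM in wild type and 10.7, 8.39 and 8.94, and its log2 difference of 1.10 (SE 0.67) was smaller than the 1.32 between the wild-type libraries. Limma called 0 of the 8 in each comparison.

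The branches that use isoprenoids outside sterols had 0 of 7 genes past the 2-fold rule and 0 called in the comparisons with wild type. PGGT1B, a subunit of a protein prenyltransferase, had the highest differences of the list in each comparison, at 0.71, 0.82 and 0.57 (SE 0.37). COQ2, which attaches the ubiquinone side chain, was at 0.46 (SE 0.31) in the library labelled Wnt5a overexpression. PDSS2, a subunit that makes the ubiquinone side chain, was at 0.33, -0.53 and 0.51 (SE 0.31). Of 8 tested fatty acid synthesis genes 0 passed the rule. ELOVL6, an elongase, had 74.0 and 26.6 FPKM in wild type and FADS2, a desaturase, 26.3 and 10.9, both lower in library 2 as CYP51A1 was, while SCD, another desaturase, had 31.7 and 32.2. ACACA, the carboxylase that starts fatty acid synthesis, had 6.91 and 7.31 FPKM in wild type and 16.5, 21.7 and 17.5 in the treated libraries, and centred log2 differences of 0.56, 0.83 and 0.61 (SE 0.31).

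Likeness of profile was measured as the root mean square difference, in log2 units, between centred profiles over the 5 libraries after each gene's own mean was subtracted. The tested genes outside the list nearest to the mean profile of the 7 enzymes were UBE2V1 at 0.033, PRKX at 0.035, UBE2G1 at 0.036, TALDO1 and SREK1 at 0.041. Of the enzymes, LSS at 0.137 and FDPS at 0.141 were nearest to that mean and EBP at 0.849 was farthest. When EBP is left out, a choice made after its values were seen, the nearest gene is RAB11A at 0.036, and DHCR7 is at 0.118, SQLE at 0.148, FDPS at 0.155, LSS at 0.159, CYP51A1 at 0.244 and FDFT1 at 0.279. INSIG1, chosen after its value was seen, lay at 0.117 from that profile, ranking 198 among the tested genes outside the list. SREBF1 was at 0.770. Each enzyme named is part of the mean profile it was measured against, which lowers its distance, whereas the other genes are not. The genes nearest to EBP alone were ADH6 at 0.143 and an unnamed gene at 0.194, both under 10 FPKM in each library, followed by SNORA81 at 0.204 and XRCC4 at 0.272, whereas the other 6 enzymes were between 0.905 and 1.20 from it.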

How the data were processed

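The authors deposited 1 table of FPKM per gene, a unit that corrects for transcript length and sequencing depth. TopHat2 2.1.0, Cufflinks 2.2.1 and galGal4 are listed in the submitters' processing notes. Annotation, strand use and handling of multiply mapped reads are not given in the sources used here. Total depth is unknown. Steps among low values put 1 read at 1.12 times its FPKM value in wild-type library 1 for wild-type library 2, and at 1.53, 1.22 and 1.30 times for the treated libraries, although only 9.47% to 29.3% of low genes sat on that step, so no reads were recovered. Gene names come from the table. No sequence or coordinate was used.

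Tests were run on log2(centred FPKM + 1), for genes averaging 1 FPKM or more, in limma 3.58.1 (R 4.3.3). A single two-sided fit held all 5 libraries and a variance trend, and p was adjusted by Benjamini-Hochberg over 11031 genes at 0.05. Residual degrees of freedom come to 1, from the wild-type pair, and limma adds prior degrees of freedom of 2.70 by pooling over genes. Each SE and p-value thus rests on the gene's own wild-type gap drawn towards the trend of that gap over all tested genes. The treated libraries, with no replicate, add nothing to this spread and are taken to vary as wild type did. With so few degrees of freedom, the lack of a call says little for any of the lists. A fold on this scale understates changes of low genes. The enzymes and lists were chosen with earlier results of these data known. Named are all listed enzymes, found genes of the mevalonate and later sterol lists (some are not reported here by name), of the other lists those called, past the 2-fold rule or with the 2 largest differences in a comparison with wild type, and the 5 genes nearest to the mean enzyme profile. INSIG1, SREBF2, NPC1, SCD, the single markers and the genes nearest to EBP or to the profile without it were chosen after their values were seen.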

Additional observations from a re-analysis of the deposited data

How the results depend on the processing

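Changing the pseudocount to 0.1, the filter (none, or a mean of at least 5 FPKM) or the variance trend turned the direction of 0 of 42 enzyme differences and brought no call to any of the 7 enzymes; adjusted p for EBP against wild type ranged from 0.315 to 1 over all settings. As deposited, the median of the 7 moved to 0.72, 0.58 and 0.65 (library labelled Wnt5a overexpression, lnc7831 and lnc3500 knockdown against wild type). At the same summed FPKM it moved to -0.73 for lnc7831 knockdown and -0.74 for lnc3500 knockdown against the library labelled Wnt5a overexpression, and 0 enzymes passed the 2-fold rule in lnc3500 knockdown. On that scale all tested genes had medians of 0.14, -0.42 and -0.39 against wild type. Leaving out each wild-type library in turn gave 0 to 1 enzymes 2-fold below wild type in each comparison, the 1 being CYP51A1 against wild-type library 1 alone, and 1 above, EBP, throughout. The median of the 7 then ranged from -0.14 to 0.45, from -0.56 to 0.25 and from -0.29 to 0.28, so its sign turned with the wild-type library used.

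Signs turned as deposited against wild type for SQLE (0.39) and CYP51A1 (0.17) in the library labelled Wnt5a overexpression, for FDPS (0.66), FDFT1 (0.16), SQLE (0.57), LSS (0.67), CYP51A1 (0.17) and DHCR7 (0.58) in lnc7831 knockdown, and for SQLE (0.26), CYP51A1 (0.21) and DHCR7 (0.54) in lnc3500 knockdown. At the same summed FPKM they turned for FDPS (-0.22), FDFT1 (-0.42) and LSS (-0.33) in lnc3500 knockdown, and at the same upper quartile for FDFT1 (-0.068) there and LSS (-0.045) in the library labelled Wnt5a overexpression. Between treated libraries, they turned at the same summed FPKM for SQLE (-0.54) and EBP (-0.46) in lnc7831 knockdown and LSS (-0.54) and CYP51A1 (-0.58) in lnc3500 knockdown against the library labelled Wnt5a overexpression, as deposited for LSS (0.026) in the former, and for DHCR7 between the knockdowns (0.040 as deposited, 0.0059 at the same upper quartile). None of these differences was called.

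Over all genes, limma called 0 with a pseudocount of 0.1 or without the filter in every comparison that had called any, and 0 as deposited for the library labelled Wnt5a overexpression. Without the trend it called 1 between the knockdowns, and 1 for lnc3500 knockdown against the library labelled Wnt5a overexpression, as with the stricter filter. Under 2 scalings added after seeing the data, it called 4, 8 and 2 against wild type at the same upper quartile (1, 4 and 0 when centred), and 6, 2 and 4 between treated libraries (5, 0 and 3 when centred). At the same summed FPKM the latter were 2, 1 and 0. The cause was not tested. The tag T4 and treatment cannot be told apart. No paired analysis was possible because only the wild-type titles carry replicate numbers.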
